A study of Mus musculus with 12 samples.

Results

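The clustered protocadherins are cadherin-type cell adhesion proteins encoded by neighbouring genes in 3 arrays, alpha, beta and gamma, and they were examined here in hippocampal RNA of APP/PS1 mice and wild-type (WT) littermates. Members were all gene symbols in the deposited expression table that begin with Pcdha, Pcdhb or Pcdhg. They numbered 58 of 24736 symbols, with 14 alpha, 22 beta and 22 gamma genes. All 58 also had enough counts to be tested, so no member was lost to the filter on low counts. The 3 APP/PS1 mice (replicates 1, 2 and 3), all male, carry the transgenes APPswe and PSEN1dE9, and they were compared with 3 male WT littermates (replicates 1, 2 and 4), all 4 months old. Total RNA from whole hippocampus was made into stranded libraries and sequenced, and levels are CPM, the deposited estimated counts scaled to TMM-adjusted library size. The small RNA libraries of the same study hold no protocadherin mRNA and were not analysed here. In mice of this kind the transgenes are driven by elements of the prion protein gene (Prnp), and the labels do not say whether the animals came from several litters. The replicates were taken to be separate animals, so p-values measure only the spread between these libraries. In bulk hippocampus, fewer cells of a type and less RNA per cell cannot be told apart.

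Each neuron switches on a small set of clustered protocadherin promoters, in a choice that depends on the looping of chromatin by CTCF and cohesin and on DNA methylation. The proteins assemble at the cell surface and bind copies of themselves on other membranes, and matching sets lead branches of the same neuron to repel each other, which is known as self-avoidance. Beta genes consist of a single coding exon. In the alpha and gamma arrays each promoter starts a variable exon that encodes the extracellular and transmembrane parts, and this exon is spliced to constant exons shared by the whole array, which encode the common end of the cytoplasmic domain. The last genes of those arrays (Pcdhac1, Pcdhac2, Pcdhgc3, Pcdhgc4 and Pcdhgc5) are called C-type genes and are used more broadly than the alternate genes, which are chosen at random from cell to cell. Alpha and gamma proteins are cut by the metalloprotease ADAM10 and then by gamma-secretase, the enzyme complex that also cuts the amyloid precursor protein.

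The annotation showed this shared structure. RefSeq annotation of GRCm38.p6, the build called mm10, held all 58 members, and all lie on chromosome 18. The alpha genes spanned positions 36930285 to 37188897, and the 3′ ends of all 14 lay within 1240 bases of each other. The beta genes spanned positions 37264998 to 37521419, with a separate end for each gene and gene lengths between 2340 and 5271 bases. The gamma genes spanned positions 37661775 to 37841873, and the ends of all 22 lay within 1384 bases of each other. A read from the shared 3′ exons of the alpha or gamma array can therefore come from any member of that array, and the annotated span of Pcdha1 (257373 bases) covers the variable exons of the alpha genes downstream of it. How the authors' counting divided such reads among members is not given in the sources used here, nor is its strand setting. Levels of single alpha or gamma genes are thus uncertain. The sum over an array does not depend on how reads were divided within it, provided that each read was counted once. Shared reads that were dropped, or counted for several members, would change the alpha and gamma sums, and the sources do not settle this. The 22 gamma genes comprise 12 gamma-A, 7 gamma-B and 3 C-type genes, and Pcdhgb8 is listed in RefSeq as a transcribed pseudogene.

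The 6 libraries held 120958765 to 146904552 estimated counts, of which about 4 appeared to stand for 1 sequenced fragment. App, the amyloid precursor protein gene, had 3170, 3465 and 2948 CPM in APP/PS1 replicates 1, 2 and 3, against 1580, 1522 and 1548 CPM in WT replicates 1, 2 and 4 (log2 fold change 1.04, SE 0.09, adjusted p = 0.117 by edgeR's quasi-likelihood test, and 0.0136 without APP/PS1 replicate 3). Prnp, whose sequence the transgene construct shares, had 1019, 1160 and 937 CPM in APP/PS1 replicates 1, 2 and 3, against 475, 509 and 527 CPM in WT replicates 1, 2 and 4 (log2 fold change 1.04, SE 0.10, adjusted p = 0.165, and 0.0172 without APP/PS1 replicate 3). Both genes thus matched the genotype labels, although neither passed the adjusted threshold in the fit of all 6 libraries. The library labelled APP/PS1 replicate 3 stood apart and went against its tissue label. It held 3476 summed CPM of 7 cerebellar genes (a list added after seeing the data), against 13.2 and 16.5 in APP/PS1 replicates 1 and 2 and 17.7, 19.2 and 24.5 in WT replicates 1, 2 and 4. Its defining gene Gabra6, a GABA-A receptor subunit of cerebellar granule cells, had 282.9 CPM in APP/PS1 replicate 3 and 0.33 CPM or less in each of the other 5 libraries. The same library was lowest for all 6 pyramidal neuron markers, with 3127 summed CPM, against 6800 and 5534 in APP/PS1 replicates 1 and 2 and 5948 to 6694 in WT. For these reasons fold changes are given with all 6 libraries and without APP/PS1 replicate 3.

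With all 6 libraries, edgeR's test called 1 of 18060 genes at an adjusted p under 0.05 (0.00554%), and it called no clustered protocadherin, the lowest adjusted p among the members being 0.887. It called 5 genes without APP/PS1 replicate 3 (0.0273%) and again no member, with a lowest adjusted p of 0.995. DESeq2 called 26 genes (0.144%), among them 1 member, Pcdha1. An unadjusted p under 0.05 was reached by 5 members (8.62%), against 3.42% of all genes tested. Of these 5, Pcdha1, Pcdhb3, Pcdhb4 and Pcdhga2 were lower in APP/PS1, 6.90% of members against 1.52% of all genes, and Pcdhgb8 was higher, 1.72% of members against 1.9% of all genes. There were 3 such members once APP/PS1 replicate 3 was left out (5.17%, against 4.02% of all genes), namely Pcdha1, Pcdhb3 and Pcdhga2. All 3 were lower in APP/PS1, where 2.14% of all genes were lower and 1.88% were higher at that level. Over the 58 members, 27 log2 fold changes were positive and 31 negative, and their median was -0.037, against 0.011 over all genes tested. The members' fold changes lay between -0.69 and 0.89 on the log2 scale.

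Another view counts genes whose APP/PS1 and WT libraries did not overlap. All 3 APP/PS1 libraries lay above all 3 WT libraries for 4 members (6.9%, against 5.63% of all genes tested), which were Pcdha2, Pcdhga11, Pcdhgb4 and Pcdhgb8. All 3 lay below for 6 members (10.3%, against 4.76% of all genes), which were Pcdha1, Pcdhb2, Pcdhb3, Pcdhb4, Pcdhb6 and Pcdhga2. With 2 APP/PS1 libraries, replicate 3 being left out, 6 members (10.3%) lay above WT, against 10% of all genes, and 8 members (13.8%) lay below, against 9.38% of all genes. The share of members above WT was close to the background in both counts, and the share below was higher than the background in both. Few genes made up these shares, and the members were not tested as a set. Pcdhb2 was apart only by 7.89 CPM in APP/PS1 replicate 1 against 7.91 CPM in WT replicate 4. Pcdhb6 was apart only by 3.58 against 3.59 CPM in the same libraries. The 4 members above WT were apart by narrow margins too.

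**Figure D1:**
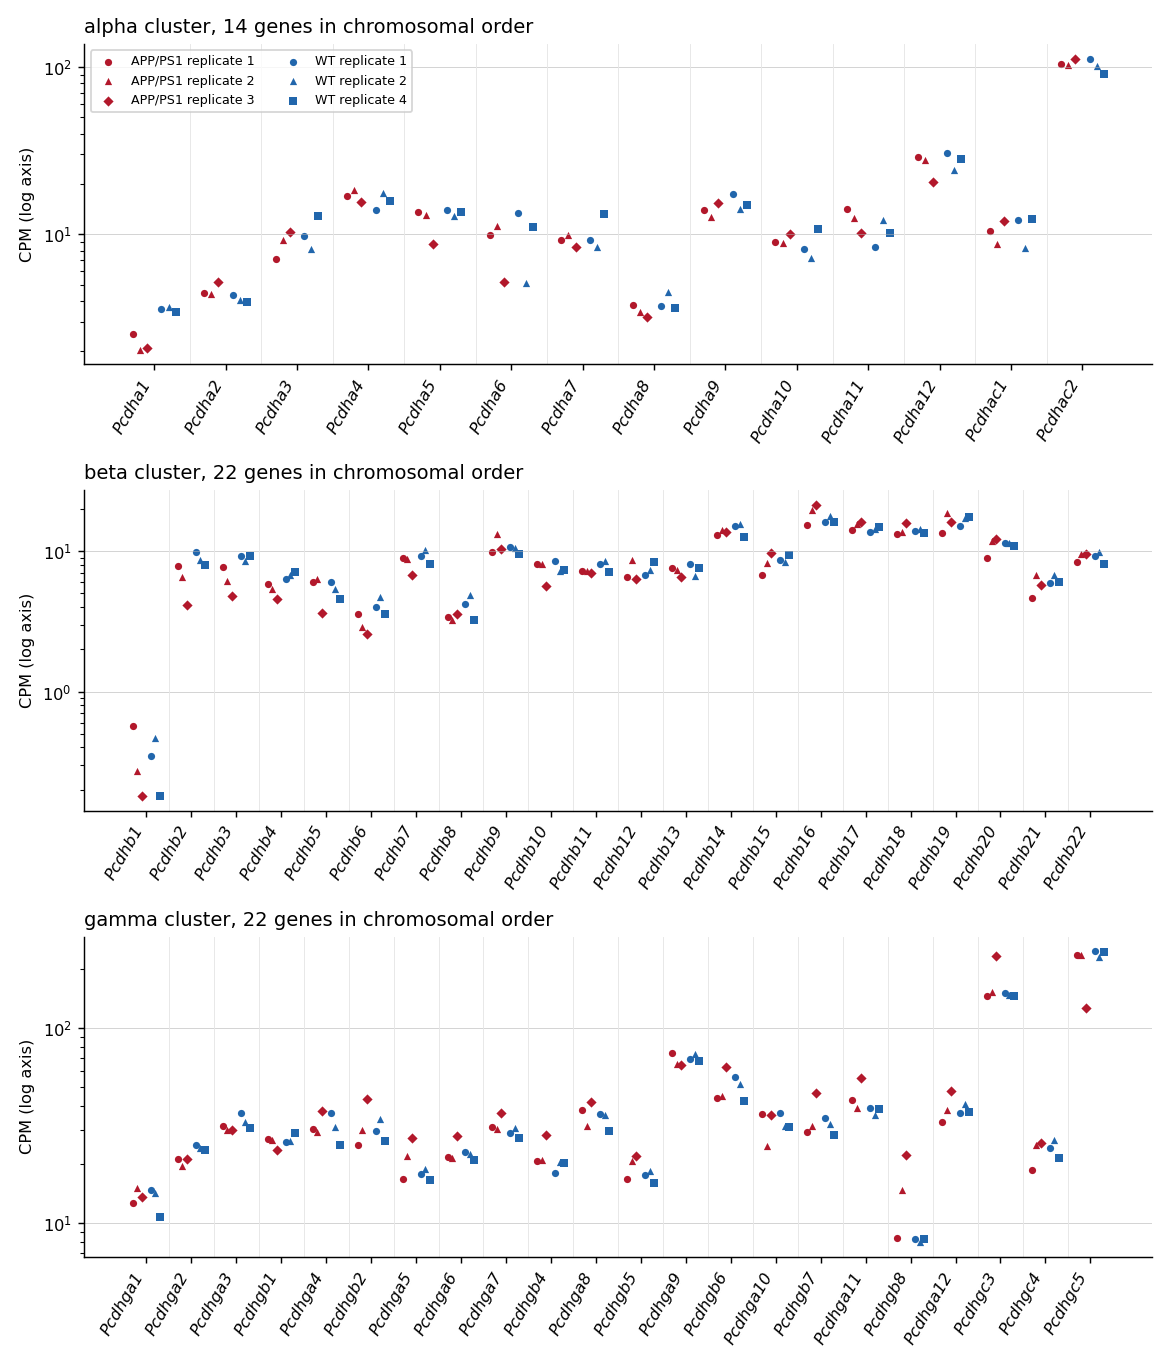
Level of each of the 58 clustered protocadherin genes in CPM (log axis), in chromosome order, with APP/PS1 libraries in red and WT libraries in blue. The C-type genes Pcdhgc5, Pcdhgc3 and Pcdhac2 carried the most counts, Pcdhb1 carried the fewest, and most genes had overlapping red and blue points.

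The gamma array carried most of the counts, then alpha, then beta, in every library. Summed over its 22 genes, gamma had 964, 973 and 1076 CPM in APP/PS1 replicates 1, 2 and 3, against 1015, 989 and 943 CPM in WT replicates 1, 2 and 4. Alpha had 248, 244 and 239 CPM in APP/PS1 replicates 1, 2 and 3, against 261, 232 and 244 CPM in WT replicates 1, 2 and 4. Beta had 181, 203 and 187 CPM in APP/PS1 replicates 1, 2 and 3, against 201, 206 and 193 CPM in WT replicates 1, 2 and 4. The 2 groups overlapped in all 3 arrays, and these sums were not divided by gene length.

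The group means differed little. Gamma averaged 1004 ± 62.4 CPM (APP/PS1) and 982 ± 36.2 CPM (WT), with SDs over 3 libraries each, a log2 ratio of 0.03. Alpha averaged 243.8 ± 4.26 CPM (APP/PS1) and 245.5 ± 14.6 CPM (WT), with SDs over 3 libraries each, a log2 ratio of -0.01. Beta averaged 190.2 ± 11.2 CPM (APP/PS1) and 200 ± 6.45 CPM (WT), with SDs over 3 libraries each, a log2 ratio of -0.07. Each of these differences was smaller than the larger SD of its pair of groups. The log2 ratios without APP/PS1 replicate 3 were -0.02 for gamma, 0.00 for alpha and -0.06 for beta. The balance between arrays was similarly even, with gamma to alpha ratios of 3.89, 3.98 and 4.50 in APP/PS1 replicates 1, 2 and 3, against 3.89, 4.27 and 3.87 in WT replicates 1, 2 and 4. The gamma to beta ratio was 5.32, 4.80 and 5.76 in APP/PS1 replicates 1, 2 and 3, against 5.06, 4.80 and 4.88 in WT replicates 1, 2 and 4. APP/PS1 replicate 3 had the highest value of both ratios.

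**Figure D2:**
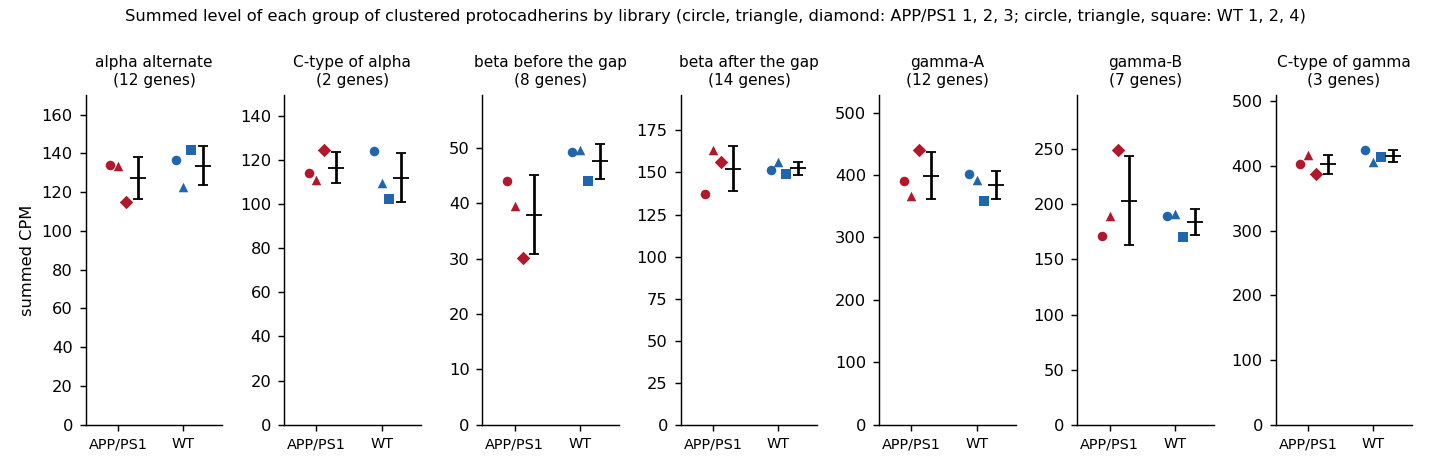
Summed CPM of each group of clustered protocadherin genes, with APP/PS1 libraries left of WT libraries, 1 point per library and a black mark for the mean ± SD (n = 3 each). Symbols are circle, triangle and diamond for APP/PS1 replicates 1, 2 and 3, and circle, triangle and square for WT replicates 1, 2 and 4. The diamond (APP/PS1 replicate 3) is highest for gamma-B at 249 CPM, and the alpha and beta sums overlap between genotypes.

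The single genes with the most counts were C-type genes in both arrays that have them (Pcdhac2 in alpha, Pcdhgc5 and Pcdhgc3 in gamma). As groups, the alternate genes summed to more than the C-type genes, at 133.6 against 111.9 CPM (alpha) and 568 against 414.5 CPM (gamma) in the WT mean. None of the 5 C-type genes reached an unadjusted p under 0.05. Pcdhac2, which the serotonergic axons of mice need for even spacing of their branches, had 103, 102 and 112 CPM in APP/PS1 replicates 1, 2 and 3, against 112, 101 and 90.1 CPM in WT replicates 1, 2 and 4. It made up 43.5 ± 2.97% of alpha counts in APP/PS1 and 41.1 ± 3.65% in WT (SD, n = 3 each). Its log2 fold change was 0.07 (SE 0.10), and 0.02 (SE 0.10) without APP/PS1 replicate 3, so the groups overlapped. The serotonergic cell body markers Tph2, Slc6a4 and Fev summed to 0.903, 0.851 and 1.01 CPM in APP/PS1 replicates 1, 2 and 3, against 0.888, 0.844 and 1.24 CPM in WT replicates 1, 2 and 4. Pcdhac1 had 10.4, 8.75 and 12.1 CPM in APP/PS1 replicates 1, 2 and 3, against 12.2, 8.27 and 12.3 CPM in WT replicates 1, 2 and 4, with full overlap (log2 fold change -0.07, SE 0.20, and -0.20, SE 0.20, without APP/PS1 replicate 3).

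Pcdhgc5 and Pcdhgc3 carried the most gamma counts. Pcdhgc5 had 237, 238 and 127 CPM in APP/PS1 replicates 1, 2 and 3, against 249, 231 and 247 CPM in WT replicates 1, 2 and 4. Pcdhgc3, which in mouse cortical neurons promotes dendrite branching through Axin1, had 146, 154 and 234 CPM in APP/PS1 replicates 1, 2 and 3, against 151, 148 and 146 CPM in WT replicates 1, 2 and 4. In both genes 5 libraries lay close together and APP/PS1 replicate 3 lay far off, low for Pcdhgc5 and high for Pcdhgc3. Their log2 fold changes were -0.27 (SE 0.23) for Pcdhgc5 and 0.27 (SE 0.18) for Pcdhgc3 with all libraries, and -0.03 (SE 0.06) and 0.01 (SE 0.06) without APP/PS1 replicate 3. The ratio of Pcdhgc3 to Pcdhgc5 CPM was 0.617, 0.646 and 1.84 in APP/PS1 replicates 1, 2 and 3, against 0.608, 0.640 and 0.592 in WT replicates 1, 2 and 4. In the other 5 libraries this ratio thus lay between 0.592 and 0.646. The sum of the 3 gamma C-type genes was nearly the same everywhere, at 403, 416 and 388 CPM in APP/PS1 replicates 1, 2 and 3, against 424, 406 and 414 CPM in WT replicates 1, 2 and 4. Pcdhgc4, the gamma member that mouse neurons need for survival, had 18.8, 25.2 and 25.8 CPM in APP/PS1 replicates 1, 2 and 3, against 24.4, 26.8 and 21.6 CPM in WT replicates 1, 2 and 4, with overlap (log2 fold change -0.06, SE 0.15, and -0.15, SE 0.15, without APP/PS1 replicate 3). The shift between Pcdhgc5 and Pcdhgc3 occurred in the library that held 3476 summed CPM of cerebellar genes and 3127 summed CPM of pyramidal markers. The part of that tissue content in the shift was not tested.

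**Figure D3:**
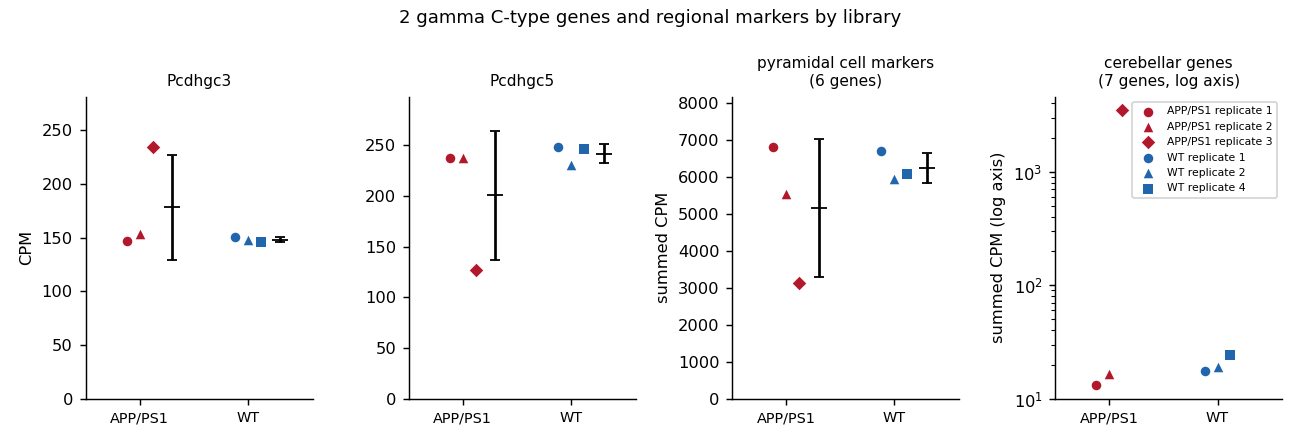
Levels in CPM of the C-type genes Pcdhgc3 and Pcdhgc5 in each library. Separate panels beside them show the summed CPM of the pyramidal and of the cerebellar marker lists in each library. APP/PS1 replicate 3 sits alone with the lowest Pcdhgc5 (127 CPM), the highest Pcdhgc3 (234 CPM) and 3476 summed CPM of cerebellar markers.

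Among the 12 alternate alpha genes, Pcdha1 differed most. It had 2.52, 2.04 and 2.09 CPM in APP/PS1 replicates 1, 2 and 3, against 3.6, 3.68 and 3.44 CPM in WT replicates 1, 2 and 4. All 3 APP/PS1 libraries were below all 3 WT libraries, and APP/PS1 replicate 3 did not stand out. Pcdha1 averaged 2.21 ± 0.262 CPM (APP/PS1) and 3.57 ± 0.124 CPM (WT), with SDs over 3 libraries each, and had a log2 fold change of -0.69 (SE 0.16). The unadjusted p of edgeR's test was 0.00406 and the adjusted p 0.887, so it was not called over all genes. Without APP/PS1 replicate 3 the log2 fold change was -0.66 (SE 0.17) with an unadjusted p of 0.00736. Over 14 other settings the log2 fold change lay between -0.79 and -0.63 with an unadjusted p under 0.05 in all 14. These settings reuse the same libraries for a gene named for its small p, so they are not independent support. The adjusted p lay between 0.0277, from DESeq2 on the undivided estimated counts, and 0.995. Pcdha1 is the first gene of the alpha array, it rested on 275 to 506 estimated counts a library, and its reads may be shared with other alpha genes as described above.

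The other alpha genes showed overlap or small gaps. Pcdha2 had 4.43, 4.38 and 5.20 CPM in APP/PS1 replicates 1, 2 and 3, against 4.33, 4.05 and 3.92 CPM in WT replicates 1, 2 and 4 (log2 fold change 0.19, SE 0.14, and 0.10, SE 0.13, without APP/PS1 replicate 3). Its groups did not overlap, though their closest libraries nearly met. Pcdha11 had 14.2, 12.5 and 10.2 CPM in APP/PS1 replicates 1, 2 and 3, against 8.41, 12.2 and 10.2 CPM in WT replicates 1, 2 and 4 (log2 fold change 0.26, SE 0.18). The overlap came from APP/PS1 replicate 3, and without it both APP/PS1 libraries lay above WT, with a log2 fold change of 0.38 (SE 0.17, unadjusted p = 0.0609). The 2 alternate alpha genes with the highest CPM, not divided by length, were Pcdha12 and Pcdha4. Pcdha12 had 29.0, 27.9 and 20.6 CPM in APP/PS1 replicates 1, 2 and 3, against 30.6, 24.3 and 28.2 CPM in WT replicates 1, 2 and 4. Pcdha4 had 17.0, 18.4 and 15.6 CPM in APP/PS1, against 14.0, 17.8 and 15.7 CPM in WT in the same order. Neither separated the genotypes, with log2 fold changes of -0.10 (SE 0.16) for Pcdha12 and 0.10 (SE 0.12) for Pcdha4, and 0.03 and 0.15 without APP/PS1 replicate 3. Pcdha6, named after its values were seen because it varied widely within both groups, had 9.97, 11.2 and 5.20 CPM in APP/PS1 replicates 1, 2 and 3, against 13.5, 5.15 and 11.1 CPM in WT replicates 1, 2 and 4 (log2 fold change -0.17, SE 0.41, and 0.09, SE 0.36, without APP/PS1 replicate 3). The highest WT library was thus 2.61 times the lowest for Pcdha6, where the median of that ratio was 1.26 over alpha genes, 1.19 over beta genes, 1.14 over gamma genes and 1.17 over all genes tested. Over the 14 alpha genes the log2 fold changes were positive for 5 and negative for 9, with a median of -0.12. Leaving out APP/PS1 replicate 3 made them 7 and 7, with a median of 0.00.

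The beta genes leaned lower in APP/PS1, with 15 of 22 negative log2 fold changes both with and without APP/PS1 replicate 3. Over all genes tested, 8604 of 18060 were negative with all libraries and 9079 of 18060 without it. The beta median was -0.07 with all libraries and -0.05 without that library, against 0.01 and 0.00 over all genes tested. The 2 remaining APP/PS1 libraries did not lean alike. APP/PS1 replicate 1 was the lowest of the 6 libraries for 6 beta genes and the highest for 1. APP/PS1 replicate 2 was the highest for 5 and the lowest for 1, and its beta sum of 203 CPM lay within the WT range. Pcdhb3 had 7.72, 6.16 and 4.79 CPM in APP/PS1 replicates 1, 2 and 3, against 9.19, 8.54 and 9.27 CPM in WT replicates 1, 2 and 4. Every APP/PS1 library was below every WT library, and APP/PS1 replicate 3 was the lowest. Pcdhb3 averaged 6.22 ± 1.47 CPM (APP/PS1) and 9.0 ± 0.401 CPM (WT), with SDs over 3 libraries each, and had a log2 fold change of -0.53 (SE 0.19, unadjusted p = 0.025). Leaving out APP/PS1 replicate 3 gave -0.38 (SE 0.13, unadjusted p = 0.0268).

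Pcdhb4 and Pcdhb6 showed the same order. Pcdhb4 had 5.82, 5.35 and 4.60 CPM in APP/PS1 replicates 1, 2 and 3, against 6.31, 6.71 and 7.15 CPM in WT replicates 1, 2 and 4 (log2 fold change -0.36, SE 0.14, unadjusted p = 0.0386). When APP/PS1 replicate 3 was left out its log2 fold change was -0.27 (SE 0.12, unadjusted p = 0.067). Pcdhb6 had 3.58, 2.87 and 2.55 CPM in APP/PS1 replicates 1, 2 and 3, against 4.02, 4.75 and 3.59 CPM in WT replicates 1, 2 and 4 (log2 fold change -0.46, SE 0.19, unadjusted p = 0.0524). Pcdhb2, named after its values were seen, had 7.89, 6.55 and 4.15 CPM in APP/PS1 replicates 1, 2 and 3, against 9.80, 8.67 and 7.91 CPM in WT replicates 1, 2 and 4 (log2 fold change -0.51, SE 0.24). Leaving out APP/PS1 replicate 3 gave log2 fold changes of -0.36 (SE 0.19) for Pcdhb6 and -0.29 (SE 0.14) for Pcdhb2. For Pcdhb2 and Pcdhb6 the closest APP/PS1 and WT libraries nearly met. The 2 beta genes with the highest CPM, not divided by gene length, overlapped between genotypes. Pcdhb16 had 15.3, 19.6 and 21.4 CPM in APP/PS1 replicates 1, 2 and 3, against 16.1, 17.9 and 16.2 CPM in WT replicates 1, 2 and 4, and Pcdhb19 had 13.5, 18.8 and 16.2 CPM in APP/PS1, against 15.1, 17.3 and 17.6 CPM in WT in the same order. Their log2 fold changes were 0.17 (SE 0.14) for Pcdhb16 and -0.04 (SE 0.14) for Pcdhb19, and 0.06 and -0.05 without APP/PS1 replicate 3.

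The 4 beta genes without overlap, Pcdhb2, Pcdhb3, Pcdhb4 and Pcdhb6, lie in the first stretch of the array. The widest stretch between neighbouring beta genes, 43244 bases from Pcdhb8 to Pcdhb9, splits the array into 8 genes before it and 14 after it, a division made after the values were seen. The next widest stretch was 27385 bases. Pcdhb1 to Pcdhb8 summed to 44.1, 39.6 and 30.2 CPM in APP/PS1 replicates 1, 2 and 3, against 49.2, 49.6 and 44.0 CPM in WT replicates 1, 2 and 4. The groups overlapped slightly in that sum, with APP/PS1 replicate 1 at 44.1 CPM and WT replicate 4 at 44.0 CPM. APP/PS1 replicate 3 was the lowest of the 6. Pcdhb9 to Pcdhb22 summed to 137, 163 and 156 CPM in APP/PS1 replicates 1, 2 and 3, against 151, 156 and 149 CPM in WT replicates 1, 2 and 4, with overlap. The log2 ratio of the sums was -0.33 for the genes before the stretch and 0.00 for those after it, and -0.19 and -0.02 without APP/PS1 replicate 3. Of the 8 genes before it, 6 had negative log2 fold changes, both with and without that library, with medians of -0.32 and -0.28. Of the 14 genes after it, 9 were negative, again both with and without that library, with medians of -0.05 and -0.03. Most of the 15 negative beta genes thus lie after the stretch, with smaller differences. Because the split followed from these values, it is a description with no test.

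Since beta genes have a single exon, their levels could be compared per kilobase of gene. The mean WT level ran from 0.135 ± 0.0605 CPM per kilobase for Pcdhb1 to 4.38 ± 0.194 CPM per kilobase for Pcdhb17 (SD, n = 3), with a median of 2.66 over the 22 genes. In APP/PS1 the same genes had 0.140 ± 0.0833 CPM per kilobase for Pcdhb1 and 4.68 ± 0.323 CPM per kilobase for Pcdhb17 (SD, n = 3). Pcdhb14 followed Pcdhb17 in the WT order with 4.22 ± 0.5 CPM per kilobase, and Pcdhb6, at 1.15 ± 0.163 CPM per kilobase, stood just above Pcdhb1. Of the 21 pairs of neighbours in the WT order, only Pcdhb6 and Pcdhb1 had WT libraries that did not overlap, so most of that order is not resolved with 3 libraries. Pcdhb1 rested on as few as 25 estimated counts in a library.

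**Figure D4:**
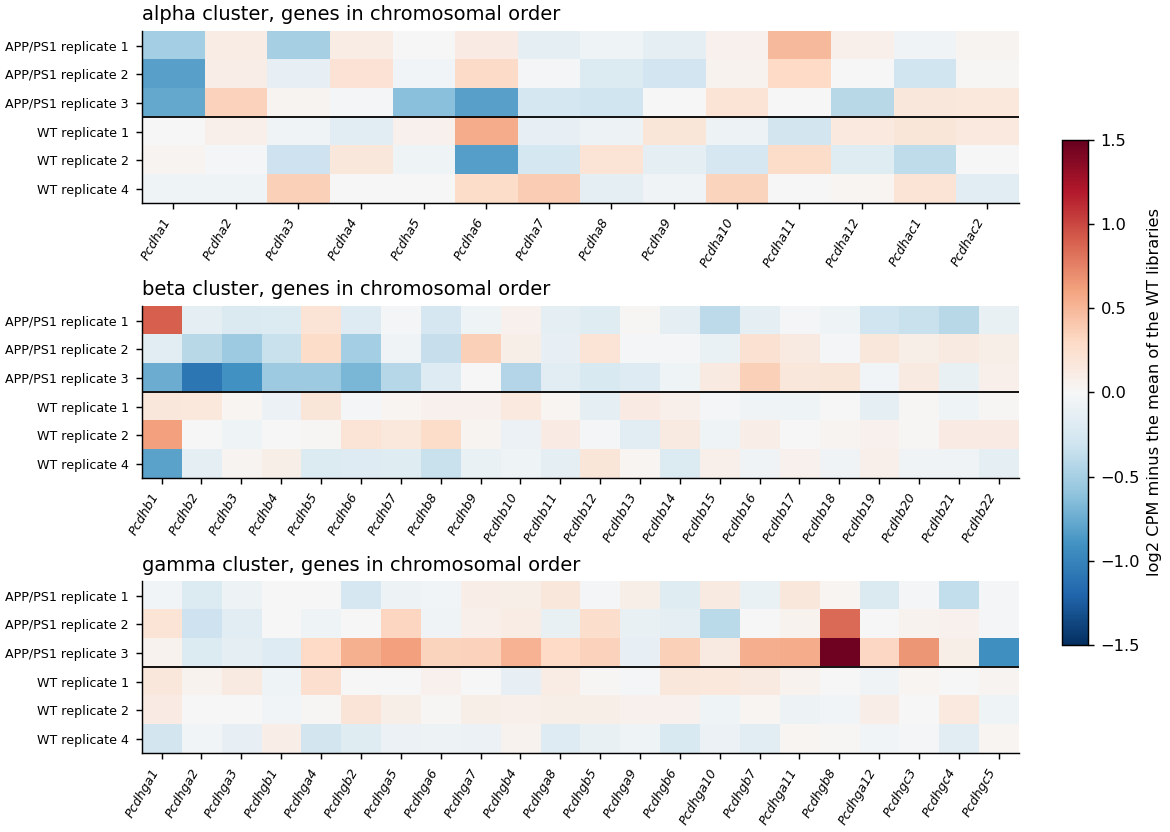
Difference of each library, APP/PS1 above the line and WT below it, from the WT mean, on the log2 scale, for each of the 58 genes in chromosome order. APP/PS1 replicate 3 reaches 1.46 at Pcdhgb8, 0.66 at Pcdhgc3, -0.92 at Pcdhgc5 and -1.08 at Pcdhb2, while APP/PS1 replicates 1 and 2 stay nearer to 0 for most genes.

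In the gamma array, Pcdhgb8 had the largest positive log2 fold change of the 58 members. It had 8.33, 14.7 and 22.3 CPM in APP/PS1 replicates 1, 2 and 3, against 8.22, 7.94 and 8.26 CPM in WT replicates 1, 2 and 4. APP/PS1 replicate 1 lay just above the highest WT library, and the group difference came from replicates 2 and 3. Pcdhgb8 averaged 15.1 ± 7.0 CPM (APP/PS1) and 8.14 ± 0.172 CPM (WT), with SDs over 3 libraries each, and had a log2 fold change of 0.89 (SE 0.33, unadjusted p = 0.0307) in edgeR's test. From the 2 other APP/PS1 libraries it was 0.50 (SE 0.22, unadjusted p = 0.0655). APP/PS1 replicate 2 was also the library with the most RNA of 10 choroid plexus markers, whose summed level was 1846, 4111 and 2483 CPM in APP/PS1 replicates 1, 2 and 3, against 1555, 1852 and 1727 CPM in WT replicates 1, 2 and 4. No marker of that list was at 0 in any library. The part of choroid plexus or cerebellar RNA in the level of Pcdhgb8 was not tested.

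Pcdhga2 was lower in APP/PS1 without leaning on that library. It had 21.2, 19.6 and 21.2 CPM in APP/PS1 replicates 1, 2 and 3, against 25.2, 24.2 and 23.7 CPM in WT replicates 1, 2 and 4, and the groups did not overlap. It averaged 20.7 ± 0.909 CPM (APP/PS1) and 24.4 ± 0.736 CPM (WT), with SDs over 3 libraries each, and had a log2 fold change of -0.24 (SE 0.08, unadjusted p = 0.023). Without APP/PS1 replicate 3 the log2 fold change was -0.26 (SE 0.08, unadjusted p = 0.0155). Over 14 other settings, which reuse the same libraries, its log2 fold change lay between -0.28 and -0.20. The unadjusted p was under 0.05 in 11 of those settings.

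**Figure D5:**
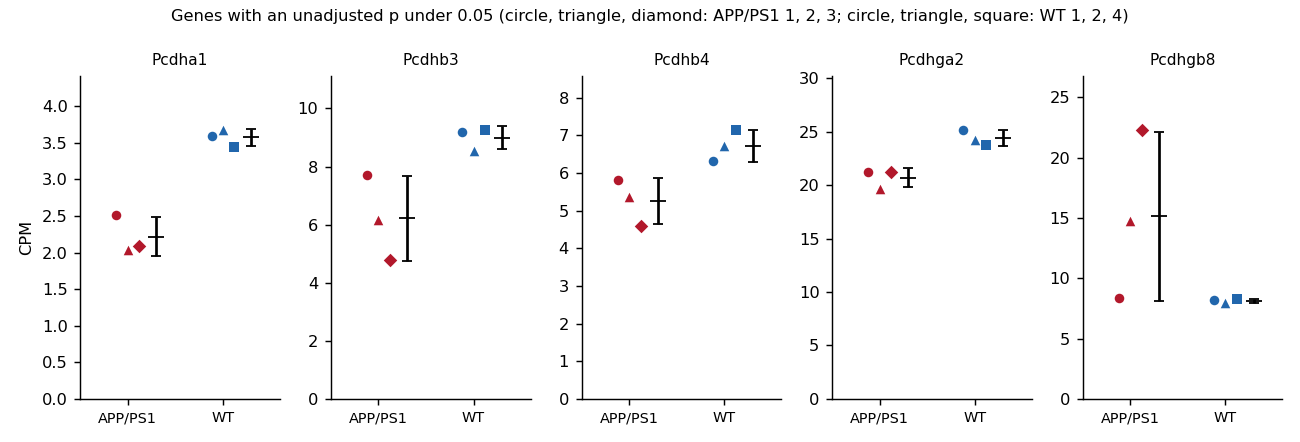
CPM of the 5 members with an unadjusted p under 0.05, with APP/PS1 libraries left of WT libraries, 1 point per library and a black mark for the mean ± SD (n = 3 each). Symbols are circle, triangle and diamond for APP/PS1 replicates 1, 2 and 3, and circle, triangle and square for WT replicates 1, 2 and 4. The APP/PS1 points of Pcdha1 (2.04 to 2.52 CPM) and Pcdhga2 (19.6 to 21.2 CPM) lie close together below WT, while those of Pcdhgb8 spread between 8.33 and 22.3 CPM.

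The other named gamma-A genes were Pcdhga11, Pcdhga5 and Pcdhga9. Pcdhga11 had 42.6, 39.0 and 55.6 CPM in APP/PS1 replicates 1, 2 and 3, against 39.0, 35.8 and 38.5 CPM in WT replicates 1, 2 and 4, just without overlap (log2 fold change 0.28, SE 0.14). Pcdhga5 had 16.8, 22.2 and 27.2 CPM in APP/PS1 replicates 1, 2 and 3, against 17.8, 18.9 and 16.7 CPM in WT replicates 1, 2 and 4, with overlap (log2 fold change 0.31, SE 0.18). Pcdhga9, the alternate gamma gene with the highest CPM in WT, had 74.9, 65.1 and 64.7 CPM in APP/PS1 replicates 1, 2 and 3, against 69.4, 73.8 and 67.5 CPM in WT replicates 1, 2 and 4 (log2 fold change -0.04, SE 0.09, and -0.01 without APP/PS1 replicate 3). The first 2 of these genes were highest in APP/PS1 replicate 3, and without it their log2 fold changes were 0.11 for Pcdhga11 and 0.13 for Pcdhga5.

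Of the groups summed, gamma-B moved most when that library was left out. Their sum was 171, 190 and 249 CPM in APP/PS1 replicates 1, 2 and 3, against 190, 191 and 170 CPM in WT replicates 1, 2 and 4, and it averaged 203.3 ± 40.6 CPM (APP/PS1) and 183.7 ± 11.7 CPM (WT), with SDs over 3 libraries each. The log2 ratio of the sums was 0.15 with all libraries and -0.03 without APP/PS1 replicate 3. Pcdhgb4 had 20.9, 21.1 and 28.2 CPM in APP/PS1 replicates 1, 2 and 3, against 18.0, 20.6 and 20.2 CPM in WT replicates 1, 2 and 4 (log2 fold change 0.25, SE 0.14, and 0.09, SE 0.09, without APP/PS1 replicate 3). Pcdhgb5 had 16.9, 20.8 and 22.0 CPM in APP/PS1 replicates 1, 2 and 3, against 17.5, 18.5 and 16 CPM in WT replicates 1, 2 and 4 (log2 fold change 0.20, SE 0.13, and 0.11, SE 0.12, without APP/PS1 replicate 3). The 2 gamma-B genes with the highest CPM, Pcdhgb6 and Pcdhgb7, had 63.5 and 46.3 CPM in APP/PS1 replicate 3, against 42.2 to 55.8 and 28.2 to 34.5 CPM in WT. Their log2 fold changes were 0.02 (SE 0.18) and 0.17 (SE 0.19) with all libraries, and -0.18 (SE 0.12) and -0.06 (SE 0.10) without that library. The gamma-A genes together had log2 ratios of 0.05 with all libraries and -0.02 without APP/PS1 replicate 3. Of the 22 gamma genes, 15 log2 fold changes were positive with all libraries, and 9 were positive without APP/PS1 replicate 3.

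Within the arrays, the library that stood apart had a different mix of gamma genes. APP/PS1 replicate 3 was the highest of the 6 libraries for 14 of 22 gamma genes (63.6%), against 31.4% of all genes tested. It was the lowest for 10 of 22 beta genes (45.5%), against 30.2% of all genes tested. To compare mixes, the percentage of an array's counts that would have to move to another gene to turn the profile of one library into that of another was computed. For gamma it was 14.7% to 17.3% between APP/PS1 replicate 3 and the other libraries, against 3.01% to 4.50% among WT libraries and 4.27% between APP/PS1 replicates 1 and 2. For alpha it was 7.44% to 11% with APP/PS1 replicate 3, against 6.13% to 9.78% among WT libraries and 2.47% between APP/PS1 replicates 1 and 2. For beta it was 7.45% to 10.7% with APP/PS1 replicate 3, against 3.64% to 5.31% among WT libraries and 6.89% between APP/PS1 replicates 1 and 2. Comparing APP/PS1 replicates 1 and 2 with WT libraries gave medians of 3.95% for gamma, 5.12% for alpha and 5.76% for beta, against medians among WT libraries of 4.11%, 7.33% and 5.26%. With that library left out, the median between genotypes was thus below the median among WT libraries for gamma and alpha. For beta it was above the WT median but below the 6.89% between APP/PS1 replicates 1 and 2. The pairs share libraries, so these values are a description with no test. The part of the cerebellar content of APP/PS1 replicate 3 in these mixes was not tested.

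The regulators of promoter choice were read from a list of 20 genes for CTCF, cohesin and its loading factors, DNA methylation and demethylation enzymes and silencing factors. In the fit of all libraries 19 of 20 were positive on the log2 scale (median 0.11), and none reached an unadjusted p under 0.05. Of all genes tested, 9450 of 18060 were positive. APP/PS1 replicate 3 was the highest of the 6 libraries for 16 of the 20 regulators, against 31.4% of all genes tested. Without it 12 regulators were positive with a median of 0.01, against 8972 of 18060 genes positive. Wapl, which removes cohesin from DNA, had 124, 130 and 154 CPM in APP/PS1 replicates 1, 2 and 3, against 118, 112 and 122 CPM in WT replicates 1, 2 and 4 (log2 fold change 0.21, SE 0.10). Smchd1, a chromatin protein that silences clustered protocadherin genes in mice, had 78.8, 83.4 and 91.5 CPM in APP/PS1 replicates 1, 2 and 3, against 72.8, 70.9 and 79.8 CPM in WT replicates 1, 2 and 4 (log2 fold change 0.18, SE 0.09). Without APP/PS1 replicate 3 the log2 fold changes were 0.11 for Wapl and 0.12 for Smchd1.

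Partners of the proteins on the membrane and inside the cell were read from a list of 23 genes that included Adam10, kinases and members of the WAVE actin complex. Of these 8 were positive and 15 negative on the log2 scale (median -0.06), and none reached an unadjusted p under 0.05. After APP/PS1 replicate 3 was left out, 14 were positive with a median of 0.01. Nlgn2, a neuroligin at inhibitory synapses, had 294, 268 and 275 CPM in APP/PS1 replicates 1, 2 and 3, against 307, 305 and 296 CPM in WT replicates 1, 2 and 4 (log2 fold change -0.12, SE 0.07, and -0.11 without APP/PS1 replicate 3). Rac1, a small GTPase that acts on actin, had 47.3, 56.5 and 56.1 CPM in APP/PS1 replicates 1, 2 and 3, against 253, 55.7 and 50.1 CPM in WT replicates 1, 2 and 4. Its log2 fold change was -1.16 (SE 0.62), and -1.21 (SE 0.72) without APP/PS1 replicate 3, and WT replicate 1 alone was high.

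Of 7 genes beside the arrays, read to see whether the region moved as a block, 4 were positive and 3 negative on the log2 scale (median 0.00). Hars2, a mitochondrial histidyl-tRNA synthetase gene, had 14.5, 15.8 and 17.2 CPM in APP/PS1 replicates 1, 2 and 3, against 12.2, 12 and 13.4 CPM in WT replicates 1, 2 and 4 (log2 fold change 0.33, SE 0.10, unadjusted p = 0.016, and 0.26, SE 0.09, unadjusted p = 0.0276, without APP/PS1 replicate 3). Zmat2, which encodes a splicing factor, had 153, 158 and 125 CPM in APP/PS1 replicates 1, 2 and 3, against 148, 163 and 176 CPM in WT replicates 1, 2 and 4, with a log2 fold change of -0.16 (SE 0.12), and -0.07 (SE 0.08) without APP/PS1 replicate 3. Among these neighbours only Hars2 reached an unadjusted p under 0.05.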

How the data were processed

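Total RNA from 6 hippocampi (3 APP/PS1, 3 WT) was sequenced. Per the submitters' processing notes, HISAT2, StringTie and DESeq were used with build mm10, and no source used here gives the counting step, its annotation or its strand setting. The deposited values are estimated counts, whole numbers listed by gene symbol. The low values 4, 5 and 8 occurred 1817, 1346 and 1201 times. The values 1, 2 and 3 occurred 990, 946 and 897 times, and 6, 7 and 9 occurred 624, 588 and 784 times. From the excess at 4, 5 and 8, about 4 estimated counts were taken to stand for 1 fragment. Values of 1 to 3 were not rare, so this reading is uncertain. The precision was set by the spread between libraries, with a biological coefficient of variation of 26.5%, and 19.7% without APP/PS1 replicate 3.

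These counts entered a quasi-likelihood fit in edgeR (version 4.0.16 under R 4.3.3) with TMM scaling, the default expression filter, no covariate and Benjamini-Hochberg adjustment over 18060 genes at 0.05, and the members were read out of that fit. The procedure was tested on simulated data. DESeq2 1.42.0, limma-voom (limma 3.58.1), sample quality weights, other size factors, other filters, a replicate block and leaving out each library were the alternatives. Sample quality weights, the count of members at an unadjusted p under 0.05, the cerebellar list and the division of the beta array were added after seeing the data. Members, lists and named genes were chosen with earlier results of these data known. Named were all C-type members, in each group of alternate genes the 3 with the smallest p and the 2 with the highest CPM, and 2 genes per other list. Markers of hippocampal and other cell types were summed to check the tissue. The small RNA counts were not used.

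Summed marker levels were also read for other cell types. Pan-neuronal markers summed to 8687, 8352 and 7056 CPM in APP/PS1 replicates 1, 2 and 3, against 9119, 8584 and 9160 in WT replicates 1, 2 and 4. In the same order, GABAergic markers summed to 1044, 1043 and 1556, against 1080, 1190 and 1043, astrocyte markers to 7346, 7914 and 6452, against 8133, 8379 and 7594, and oligodendrocyte markers to 2597, 3150 and 2554, against 3989, 3007 and 2691. Microglia markers summed to 222, 194 and 135, against 207, 215 and 193, endothelium markers to 172, 175 and 197, against 170, 187 and 187, and dentate markers to 352, 342 and 560, against 346, 334 and 327. In APP/PS1 replicate 3 the dentate sum was high through Calb1 alone, at 400 CPM against 83.0 to 90.8 CPM in WT, and the other 3 dentate markers were the lowest of the 6 libraries. Its GABAergic sum was high through Reln, at 572 CPM against 180 to 184 CPM in WT, and Pvalb, at 256 CPM against 24.6 to 28.3 CPM in WT, and 6 of those 10 markers were the lowest of the 6 libraries there.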

Additional observations from a re-analysis of the deposited data

How the results depend on the processing

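The number of genes past the threshold was 1 with edgeR's test, 26 with DESeq2, 2 with a replicate block, 5 with sample quality weights and 0 to 6 when 1 library was left out at a time. The number of members past it was 0 in each of these except DESeq2, which called 1, Pcdha1. Members at an unadjusted p under 0.05 numbered 5, 3 with the replicate block, and 1 to 10 when 1 library was left out, the highest without APP/PS1 replicate 1 and the lowest without WT replicate 1. Of all genes, 3.42% were at that level in the main fit and 4.02% without APP/PS1 replicate 3. The shares under the other settings are not given here, so those counts cannot be set against a background.

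The median log2 fold change was -0.123 for alpha, 0.027 with the replicate block and -0.197 to 0.001 with 1 library left out. It was -0.070 for beta, and -0.144 to -0.052 with 1 library left out. For gamma it was 0.081, and it turned negative with the replicate block, at -0.062, and without APP/PS1 replicate 3, at -0.023, the range with 1 library left out being -0.023 to 0.148. Among the named genes, Pcdha12 was at -0.10, with 0.06 under the block, 0.02 with quality weights and -0.19 to 0.03 with 1 library left out. Pcdhac2 was at 0.07, with -0.05 under the block and -0.01 to 0.15. Pcdhgb6 was at 0.02, with -0.28 under the block, -0.11 with quality weights and -0.18 to 0.12. Pcdhgb7 was at 0.17, with -0.13 under the block and -0.06 to 0.30. Leaving out 1 library moved Pcdhac1 between -0.23 and 0.04, Pcdhb19 between -0.17 and 0.07 and Pcdhgc4 between -0.15 and 0.08. The cause was not tested.

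The replicate numbers 1 and 2 occur in both groups. The deviations of same-numbered libraries had correlations of 0.09 and -0.04, so the numbers are not shown to pair the animals, and the replicate block leaves APP/PS1 replicate 3 and WT replicate 4 without a partner.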

Other observations

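Protocadherins outside the 3 arrays, which have their own promoters and do not take part in the alpha, beta and gamma promoter choice, were read from a list of 12 genes. Of these 10 were negative and 2 positive on the log2 scale (median -0.19, against 0.01 over all genes tested). APP/PS1 replicate 3 was the lowest of the 6 libraries for 8 of them, against 30.2% of all genes tested. Without it 5 were positive with a median of -0.06. Pcdh11x, an X-linked protocadherin, had 16, 21.1 and 16.6 CPM in APP/PS1 replicates 1, 2 and 3, against 20.3, 25.4 and 27.9 CPM in WT replicates 1, 2 and 4. Its groups overlapped, and its log2 fold change was -0.46 (SE 0.16, unadjusted p = 0.0262 by edgeR, adjusted p = 0.887). Without APP/PS1 replicate 3 it was -0.41 (SE 0.17, unadjusted p = 0.0521).

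Pcdh15, a component of the tip link of hair cells, had 41.0, 39.7 and 21.3 CPM in APP/PS1 replicates 1, 2 and 3, against 38.8, 46.7 and 51.6 CPM in WT replicates 1, 2 and 4 (log2 fold change -0.43, SE 0.26, and -0.18, SE 0.12, without APP/PS1 replicate 3). Pcdh8, Pcdh19 and Pcdh20, named after their values were seen, had 27.8, 92.4 and 93.8 CPM in APP/PS1 replicate 3. The other 2 APP/PS1 libraries held 62.7 to 69.0, 168 to 207 and 173 to 196 CPM of these genes, against 55.1 to 62.8, 140 to 189 and 151 to 173 CPM in WT. The part of the cerebellar content of that library in these levels was not tested.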
